A study of Mus musculus with 7 samples.

Results

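The genes described here are 10 transcripts of the unfolded protein response and of the stress programme run by the transcription factor ATF4: Atf4, Ddit3, Trib3, Chac1, Asns, Atf6, Xbp1, Sdf2l1, Calr and Herpud1. They were chosen by name, by a rule that uses no measured values but with earlier results of these data known, from 22180 genes that have a microarray probe set annotated with their symbol alone, and each of the 10 had exactly 1 such probe set. Brain vascular fragments, pieces of small vessels with endothelial cells, mural cells and attached brain cells, came from female C57BL/6N mice aged 12 weeks. The mice had received an intracerebroventricular (ICV) injection of PDGF-CC, a ligand of the receptor PDGFR-alpha, or of phosphate-buffered saline (PBS), and tissue was taken 4 h later. No genetic change is given for either group. There were 4 PDGF-CC arrays and 3 PBS arrays, and the sources used here give neither the dose nor whether each array stands for a separate animal, so that p-values reflect sample-to-sample spread alone, part of which may be technical.

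The unfolded protein response adjusts the endoplasmic reticulum (ER) to its load of unfolded protein. It starts at the membrane sensors IRE1, PERK and ATF6. IRE1 splices the Xbp1 transcript, ATF6 is cut free from the membrane, and PERK phosphorylates the translation factor eIF2-alpha, which slows translation in general while that of Atf4 rises. Amino acid shortage and other stresses reach ATF4 by other kinases, a network called the integrated stress response. XBP1 and cleaved ATF6 induce chaperones and degradation factors of the ER, and ATF4 induces genes of amino acid supply and of cell death control. Because splicing, cleavage and translation are not seen in total transcript levels, the targets report on these pathways more directly than Atf4, Atf6 and Xbp1 themselves. Brain endothelial cells, mural cells and fibroblasts secrete basement membrane and other matrix proteins through the ER.

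The promoters of 5 of these genes are shown because they carry known stress elements and include that of Herpud1, which had the smallest p of the 10 without passing the adjusted threshold, beside those of targets with larger p. Each sequence runs 5′ to 3′ along the gene, from 250 bases before the start of transcription to 50 bases from it onwards, and is taken from RefSeq, build GRCm38.p6. The windows are chr8:94386179-94386478 (+ strand) for Herpud1, chr8:84846882-84847181 (- strand) for Calr, chr6:7693160-7693459 (- strand) for Asns, chr2:119350992-119351291 (+ strand) for Chac1 and chr2:152344011-152344310 (- strand) for Trib3. Capitals mark matches to the elements named in the next paragraph.
Herpud1: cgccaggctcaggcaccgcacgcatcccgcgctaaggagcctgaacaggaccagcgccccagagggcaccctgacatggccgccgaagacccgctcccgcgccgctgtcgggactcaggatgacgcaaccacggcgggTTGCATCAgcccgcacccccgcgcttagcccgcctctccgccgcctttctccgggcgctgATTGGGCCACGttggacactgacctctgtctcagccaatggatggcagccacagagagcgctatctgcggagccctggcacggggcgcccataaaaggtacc
Calr: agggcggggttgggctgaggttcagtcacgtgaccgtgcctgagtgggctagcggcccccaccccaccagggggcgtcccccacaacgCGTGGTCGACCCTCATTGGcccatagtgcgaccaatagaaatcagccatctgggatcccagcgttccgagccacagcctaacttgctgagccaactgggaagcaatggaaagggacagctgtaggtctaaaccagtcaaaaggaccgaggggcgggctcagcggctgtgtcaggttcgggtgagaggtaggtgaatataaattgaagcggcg
Asns: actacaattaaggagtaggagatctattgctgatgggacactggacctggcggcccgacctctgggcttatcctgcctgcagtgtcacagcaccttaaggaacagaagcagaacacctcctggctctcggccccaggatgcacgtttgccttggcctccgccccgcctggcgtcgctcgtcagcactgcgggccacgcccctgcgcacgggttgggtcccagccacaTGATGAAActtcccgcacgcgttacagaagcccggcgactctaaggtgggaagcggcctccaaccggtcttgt
Chac1: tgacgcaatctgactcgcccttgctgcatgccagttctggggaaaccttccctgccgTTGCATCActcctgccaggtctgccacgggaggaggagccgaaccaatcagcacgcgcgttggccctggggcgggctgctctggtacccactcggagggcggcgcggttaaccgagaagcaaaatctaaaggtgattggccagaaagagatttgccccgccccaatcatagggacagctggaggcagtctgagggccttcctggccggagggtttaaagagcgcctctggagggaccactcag
Trib3: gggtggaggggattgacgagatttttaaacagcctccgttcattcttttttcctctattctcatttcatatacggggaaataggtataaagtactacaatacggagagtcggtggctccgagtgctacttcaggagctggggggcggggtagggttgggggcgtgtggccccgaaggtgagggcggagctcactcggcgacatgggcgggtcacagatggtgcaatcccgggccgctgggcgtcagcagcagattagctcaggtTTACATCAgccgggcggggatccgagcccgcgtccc

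Promoters were found for 9 of the 10 genes, Atf6 being the other one, and were searched on both strands. The ER stress element, read here as CCAAT followed after 9 bases by CCACG, is bound by ATF6 with NF-Y. It was present in the promoter of 1 gene, Calr, with its first base 162 bases before the start, and in 0.119% of 32851 promoters of the same length. A shorter form, ER stress element II, read as ATTGG and CCACG with 1 base between them, was searched after the data had been seen. It lay 52 bases before the start in Herpud1 (ATTGGGCCACG) and occurred in 0.0365% of promoters. The C/EBP-ATF element TGATGNAA, a type of site bound by ATF4 with C/EBP partners, was present in 4 genes, Herpud1, Trib3, Chac1 and Asns, and in 3.97% of all promoters. In Herpud1 the C/EBP-ATF element lay 112 bases before the start. Because ER stress element II was added after the values of Herpud1 had been seen, its match there does not set this promoter apart. The element TGACGTGG, bound by XBP1 and ATF6, was in 0.676% of promoters and in 0 of these 9. The elements do not overlap in these windows, and Atf4, Ddit3, Xbp1 and Sdf2l1 had no match in theirs. A match is a string of letters, not a measured binding site.

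All values are deposited log2 expression values. All 10 genes passed the filter on dim probe sets, a mean above 4.14 (log2), and were tested with limma among 17734 probe sets. Arrays correlated with each other at 0.987 to 0.994, and the median difference over all tested probe sets was -0.004. All 10 endothelial markers lay far above that filter, with means of 9.09 or more. The 5 neuronal markers were dimmer, with means of 4.21 to 5.48. The brightest choroid plexus (Ttr, 12.75), pericyte, microglial and smooth muscle markers also had means above 9.09. The brightest astrocyte, neutrophil, fibroblast and oligodendrocyte markers lay below that value. The arrays thus carried signal of several cell types besides endothelium.

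After PDGF-CC, Herpud1 was the single gene of the 10 whose 4 treated arrays all lay below the 3 PBS arrays, at 0.788 of the PBS level, and it did not pass the adjusted threshold. The other 9 genes differed by at most 0.07 in either direction (log2). Over the 10 genes the median difference was -0.01.

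**Figure D1:**
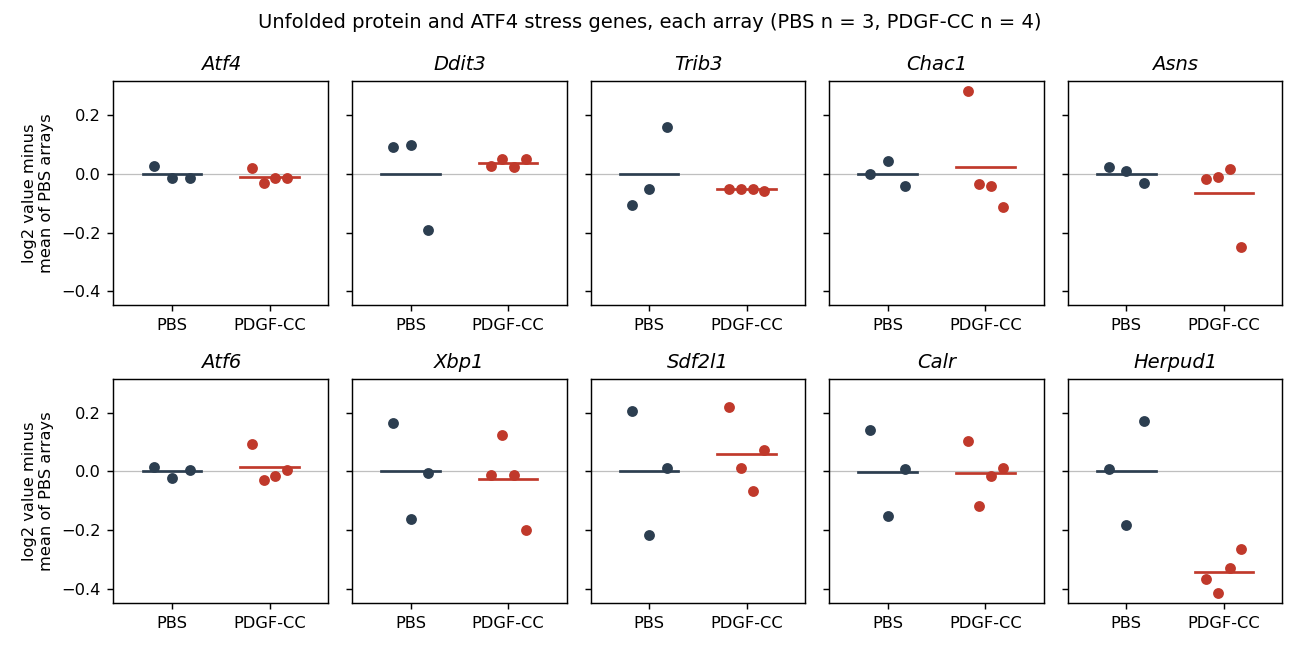
Log2 value of each gene in each array minus the mean of the 3 PBS arrays (vertical axis, the same in all panels), for 3 PBS and 4 PDGF-CC arrays. Each point is 1 array and each line a group mean. Herpud1 is the one gene whose groups do not overlap, while Atf4 lies within 0.0581 over all 7 arrays.

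The transcript of ATF4 itself was the steadiest. Atf4 measured 10.46, 10.41, 10.43 and 10.43 in PDGF-CC arrays 1 to 4, and 10.47, 10.43 and 10.43 in PBS arrays 1 to 3. All 7 arrays thus lay within 0.06, and the groups overlapped. The difference was -0.01 ± 0.044 (log2, SE), and its 95% interval covered ratios of 0.924 to 1.07. In 4 arrays Atf4 had exactly the same deposited value, which was also so for Trib3. Such repeats occurred in 17.3% of tested probe sets, and how they arose was not tested.

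Ddit3 encodes CHOP, a transcription factor that promotes cell death in long ER stress. It measured 8.30, 8.33, 8.30 and 8.33 in the PDGF-CC arrays and 8.37, 8.38 and 8.09 in the PBS arrays. PBS array 3 lay lowest and the other PBS arrays highest, so that the treated arrays fell between them. The difference was +0.04 ± 0.079, and -0.06 without PBS array 3.

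Trib3, a pseudokinase that holds ATF4 and CHOP activity in check, measured 5.50, 5.50, 5.50 and 5.50 in the PDGF-CC arrays and 5.45, 5.50 and 5.71 in the PBS arrays. PBS array 3 stood above and PBS array 1 below all others, and the remaining arrays lay together. The difference of -0.05 ± 0.070 became +0.03 without PBS array 3. Chac1 encodes an enzyme that degrades glutathione and is among the strongest ATF4 and CHOP targets. It measured 5.71, 5.40, 5.39 and 5.32 in the PDGF-CC arrays and 5.43, 5.47 and 5.39 in the PBS arrays. PDGF-CC array 1 was highest and PDGF-CC array 4 lowest, so the treated arrays spanned all PBS values. The difference was +0.02 ± 0.099, and -0.06 without PDGF-CC array 1.

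Asns, asparagine synthetase, a classical target of ATF4 in amino acid shortage, measured 7.44, 7.45, 7.48 and 7.21 in the PDGF-CC arrays. In the PBS arrays it measured 7.48, 7.47 and 7.43. PDGF-CC array 4 lay below the other 6 arrays, which held within a narrow band. The difference was -0.07 ± 0.075, and -0.005 without PDGF-CC array 4. For the ATF4 targets Trib3, Chac1 and Asns, the 95% intervals ended at ratios of 1.08, 1.19 and 1.08 on the upper side and 0.859, 0.865 and 0.845 on the lower. Trib3 and Chac1 were dim, with PBS means of 5.55 and 5.43 where the filter lay at 4.14.

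**Figure D2:**
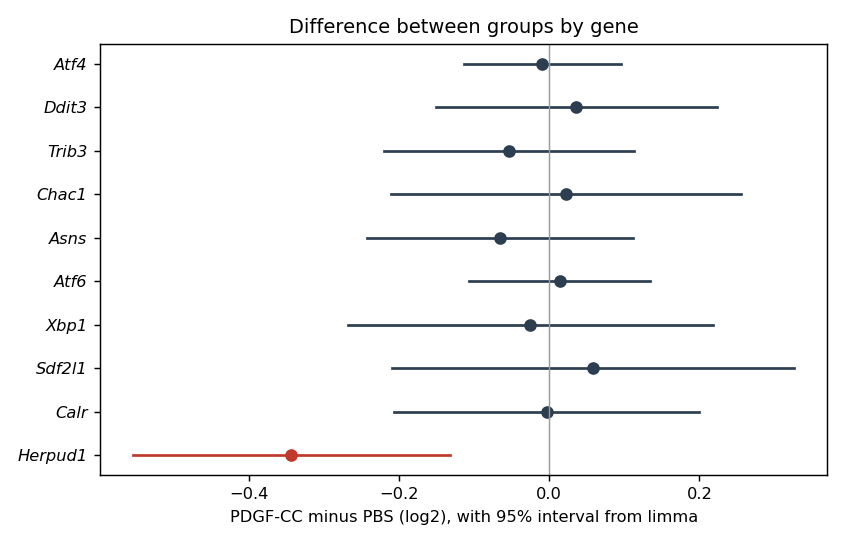
Difference PDGF-CC minus PBS on the log2 scale for each gene (point) with its 95% interval from limma (line), for 4 and 3 arrays. The interval of Herpud1 runs from -0.55 to -0.13 and those of the other 9 genes include 0.

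Transcripts of the ER sensor branches followed. Atf6, the membrane-bound sensor and transcription factor, measured 8.57, 8.45, 8.47 and 8.48 in the PDGF-CC arrays and 8.50, 8.46 and 8.48 in the PBS arrays. PDGF-CC array 1 lay above all other arrays, and the groups overlapped. The difference was +0.01 ± 0.051, with ratios of 0.929 to 1.10 in the 95% interval. Xbp1, the target of IRE1 splicing, measured 8.65, 8.79, 8.65 and 8.46 in the PDGF-CC arrays and 8.83, 8.50 and 8.66 in the PBS arrays. Its highest value was in a PBS array and its lowest in a treated one, with overlap throughout, and the difference was -0.02 ± 0.10. Whether spliced Xbp1 changed is not resolved by 1 probe set for the gene.

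Among chaperone genes, Sdf2l1, which supports the ER chaperone BiP with its DnaJ partners, measured 6.77, 6.56, 6.48 and 6.62 in the PDGF-CC arrays and 6.76, 6.33 and 6.56 in the PBS arrays. Calr, calreticulin, a calcium-binding chaperone for glycoproteins, measured 10.27, 10.05, 10.15 and 10.18 in the PDGF-CC arrays and 10.31, 10.01 and 10.17 in the PBS arrays. Within the PBS group, Sdf2l1, Calr and Xbp1 alike were highest in array 1 and lowest in array 2. The spread within the PBS group exceeded the difference between groups, which was +0.06 ± 0.11 for Sdf2l1 and -0.003 ± 0.086 for Calr. The 95% interval covered ratios of 0.865 to 1.25 for Sdf2l1 and 0.867 to 1.15 for Calr. Calr is the gene shown above with the ER stress element in its promoter.

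Herpud1 encodes a membrane protein of the ER that helps assemble the complex for degradation of misfolded proteins (ER-associated degradation), and its transcript rises in ER stress. It measured 8.41, 8.37, 8.45 and 8.52 in PDGF-CC arrays 1 to 4, and 8.79, 8.60 and 8.95 in PBS arrays 1 to 3. The treated arrays lay close together (SD 0.062) and the PBS arrays farther apart (SD 0.18), with a gap of 0.0819 between PDGF-CC array 4 and PBS array 2. The difference was -0.34 ± 0.089 (log2, SE), a ratio of 0.788 with a 95% interval of 0.681 to 0.912. The unadjusted p was 0.00621 and the adjusted p 0.769 by limma, so that Herpud1 did not pass the threshold over all probe sets, among which it had rank 124 by p. Leaving out 1 array at a time gave differences from -0.43 (without PBS array 2) to -0.26 (without PBS array 3). Adjusted p over all alternatives ran from 0.358 to 0.847. In bulk tissue, fewer cells of a type and less RNA per cell cannot be told apart.

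Numbers in the sample descriptions run from 1 to 7 over both groups and may reflect an order of handling, which the labels do not state. The Herpud1 difference was -0.30 within numbers 1 to 4 and -0.47 within 5 to 7. Numbers 5 to 7 hold PDGF-CC arrays 3 and 4 but only PBS array 3, which had the highest Herpud1 value (8.95). Within numbers 1 to 4 and within 5 to 7 the PDGF-CC numbers precede the PBS numbers, so treatment and order within a part cannot be told apart. Some markers of other cell types reached an unadjusted p under 0.05 as well, and 0 passed the adjusted threshold. For scale, 3.41% of the 17734 probe sets reached the unadjusted level downward and 2.63% upward. Of 8 measured choroid plexus markers, 7 were lower at an unadjusted p under 0.05, with 0 past the adjusted threshold. Their summed level on the linear scale ranged from 5650 to 7725 in PDGF-CC and from 8160 to 8851 in PBS arrays, and every marker was above the filter, from a mean of 5.31 up to 12.75 for Ttr. As for Herpud1, no treated array reached a PBS array in the mean log2 value of these markers. It was at most 7.158 in PDGF-CC (array 4) and at least 7.23 in PBS (array 1). The mean of the fibroblast markers lay apart in the same direction, at most 5.548 in PDGF-CC and at least 5.565 in PBS arrays. That of the microglial markers lay apart in the other direction, at least 10.02 in PDGF-CC and at most 9.971 in PBS arrays. Of 6 microglial markers, 2 were higher at an unadjusted p under 0.05, with summed levels of 8355 to 8738 against 5348 to 7935. The low end of the PBS sums was array 2 alone, with arrays 1 and 3 at 7935 and 7553. Of 8 pericyte markers 2 were lower, with overlapping sums of 8317 to 10510 and 9414 to 10700. Of 4 fibroblast markers 3 were negative and 1, Dcn, was lower at that level (-0.47), and the sums did not overlap, at 212.2 to 256.1 in PDGF-CC and 257.3 to 324.9 in PBS arrays. All 4 smooth muscle markers were positive and 1, Cnn1, was higher at that level (+0.21), with overlapping sums of 4317 to 4902 and 3410 to 4677. The endothelial, astrocyte, neuron, neutrophil and oligodendrocyte lists had 0 markers at that level. The part of these cell types in the Herpud1 difference was not tested.

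**Figure D3:**
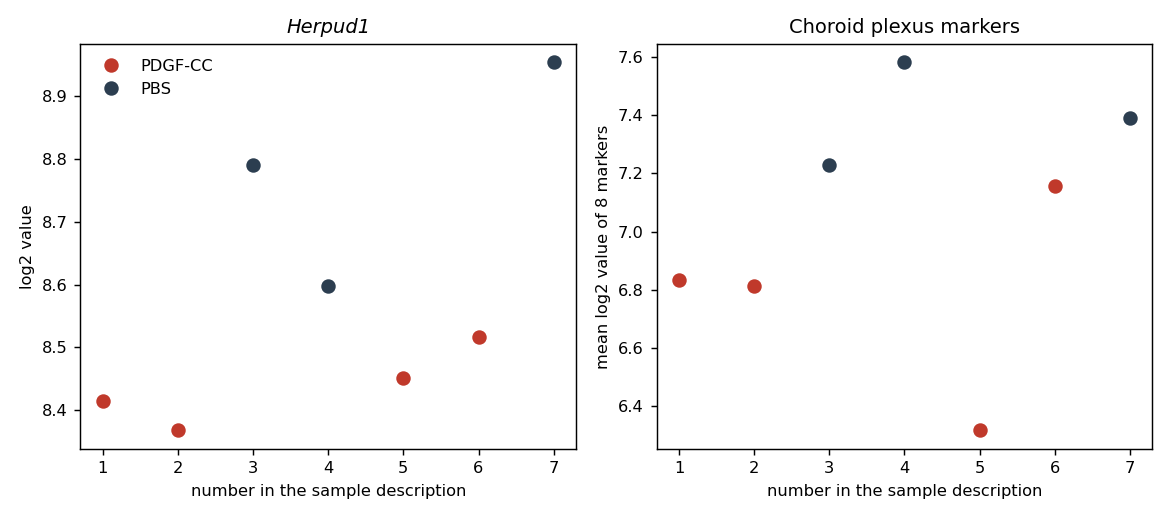
Log2 value of Herpud1 (left) and mean log2 value of 8 choroid plexus markers (right) in each array, against the number in the sample description; red points are PDGF-CC arrays and dark points PBS arrays. In both panels the 4 red points lie below the 3 dark ones.

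At the adjusted threshold of 0.05, limma called 0 of the 10 genes, as it called 0% of all 17734 probe sets. An unadjusted p under 0.05 was reached by 1071 probe sets. At that level 1 of the 10 was lower, against 3.41% of all probe sets, and 0 were higher, against 2.63%. Groups that did not overlap were found for 1 gene in the lower direction, where all probe sets gave 2.5%, and for 0 in the higher direction, where they gave 1.8%. A single gene is too few to set the list apart from the background. For the other 9 genes unadjusted p ran from 0.411 to 0.969. Their 95% intervals ran from a ratio of 0.831 (Xbp1) to one of 1.25 (Sdf2l1).

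The other genes of the pathway were taken from 6 lists. Of 105 tested genes, 4 were lower (3.81%) and 1 higher (0.952%) at an unadjusted p under 0.05, 0 passed the adjusted threshold, and 93 differed by no more than 0.2 (log2). Their median difference was -0.003. Groups did not overlap for 3 genes, all lower (2.86%).

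**Figure D4:**
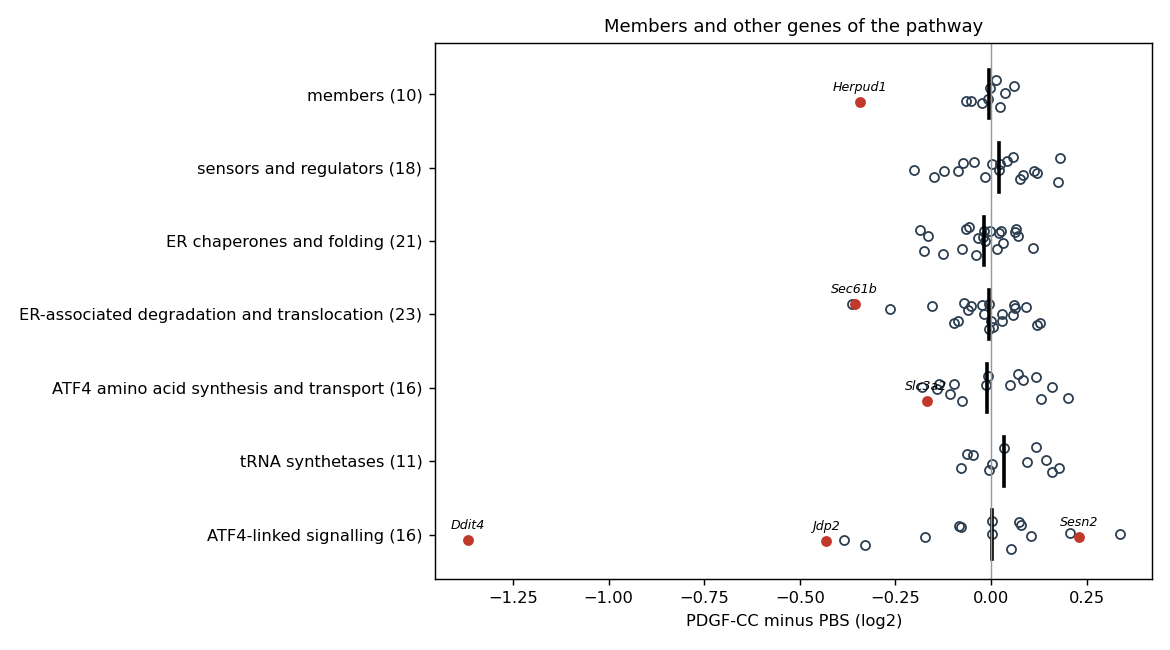
Difference PDGF-CC minus PBS (log2) for each tested gene of the 10 and of 6 pathway lists, with the number of genes in brackets; filled points have an unadjusted p under 0.05, open points do not, and vertical bars are list medians. Medians lie between -0.02 and +0.03, and Ddit4 (-1.37) stands farthest from 0.

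Of 18 sensors and regulators 0 passed even the unadjusted level, with a median of +0.02. Eif2ak3, which encodes PERK and was not among the genes with the smallest p, differed by -0.02 ± 0.050. The gene of the other sensor kinase, Ern1 (IRE1), was at -0.12 ± 0.064 (adjusted p = 0.769 by limma). Among those with the smallest p were also the kinase gene Map3k5, which acts downstream of IRE1 in cell death signalling, at +0.18 ± 0.089, and Eif2ak2, the kinase PKR that senses double-stranded RNA, at -0.15 ± 0.087. The eIF2-alpha phosphatase subunit gene Ppp1r15b was at +0.08 ± 0.051. Within description numbers 5 to 7, which hold PBS array 3 as the only PBS array, Eif2ak2 was at +0.03 and Map3k5 at -0.04. Without PBS array 2 Map3k5 was at +0.09 and Eif2ak2 at -0.08. Without PBS array 3 Map3k5 was at +0.28, without PDGF-CC array 1 Eif2ak2 was at -0.10, and without PBS array 1 Ern1 was at -0.07.

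Of 21 ER chaperone and folding genes, 0 passed the unadjusted level, 13 were negative and 8 positive, and the median was -0.02. Hspa5, which encodes BiP, the chaperone whose release is linked to sensor activation, differed by +0.01 ± 0.057, and Hsp90b1, encoding GRP94, by -0.02 ± 0.058. These, named after their values were seen, are classical targets of ATF6. The oxidase gene Ero1a, which drives disulphide formation, was at -0.18 ± 0.084 and on its other probe set at -0.20 ± 0.085, while its relative Ero1b was at +0.07 ± 0.058. The disulphide isomerase gene Pdia5 was at -0.18 ± 0.11 and the prolyl isomerase gene Ppib at -0.13 ± 0.091. Without PBS array 3 Pdia5 was at -0.08, without PBS array 2 Ppib was at -0.20, and without PDGF-CC array 1 Ero1b was at +0.03. Adjusted p for these 4 lay between 0.769 and 0.787 by limma.

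Genes of ER-associated degradation and translocation, the group in which Herpud1 works, had a median of -0.005 over 23 genes. One of them, Sec61b, a subunit of the channel through which proteins enter the ER, was lower at the unadjusted level, at -0.36 ± 0.14 (log2, SE). Its unadjusted p was 0.0427 and its adjusted p 0.769 by limma. It measured 9.84, 9.57, 9.84 and 9.57 in the PDGF-CC arrays and 9.96, 10.38 and 9.85 in the PBS arrays, with PBS array 2 far above the rest. Without PBS array 2 the difference was -0.20, and its dimmer probe set, under the filter, was at -0.23. Another subunit gene of that channel, Sec61g, was at -0.36 ± 0.16, and its treated arrays too lay below every PBS array; without PDGF-CC array 2 it was at -0.23. The degradation factor genes Derl3 and Os9 were at -0.26 ± 0.11 and +0.13 ± 0.073, and without PBS array 3 at -0.15 and +0.06. Derl3 was dim, with a PDGF-CC mean of 4.25. Syvn1 and Sel1l, named after their values were seen, encode the ubiquitin ligase complex that Herpud1 protein joins, and differed by -0.001 ± 0.086 and -0.005 ± 0.064.

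Of 16 ATF4 target genes of amino acid synthesis and transport, 1 was lower at the unadjusted level and the median was -0.01. That gene, Slc3a2, the heavy chain of several amino acid transporters, was at -0.17 ± 0.071 with a p of 0.0499 at the edge of the level (adjusted p = 0.769 by limma). Without PBS array 3 it was at -0.11. The serine pathway genes Shmt2 and Phgdh were at -0.18 ± 0.083 and +0.20 ± 0.13, and the neutral amino acid transporter gene Slc1a4 at +0.12 ± 0.081. Without single arrays these ranged from -0.28 to -0.13 for Shmt2, from +0.12 to +0.30 for Phgdh and from +0.07 to +0.16 for Slc1a4. The transporter gene Slc1a5, named after its values were seen, differed by +0.05 ± 0.14 on its brighter probe set. On its dimmer probe set it differed by -0.17 ± 0.064, with an unadjusted p of 0.033 and an adjusted p of 0.769 by limma.

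The 11 tRNA synthetase genes, which ATF4 raises together in amino acid shortage, had a median of +0.03 and 0 at the unadjusted level. Mars1 was at +0.18 ± 0.076, Cars at +0.16 ± 0.11, Yars at +0.14 ± 0.10 and Nars at +0.10 ± 0.058, with adjusted p from 0.769 to 0.772 by limma. Without PBS array 2 Mars1 was at +0.12, without PBS array 3 Cars was at +0.03, and without PDGF-CC array 1 Yars was at +0.06.

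Of 16 ATF4-linked signalling genes, 2 were lower and 1 was higher at the unadjusted level, and the median was +0.002. Ddit4, which encodes the mTORC1 inhibitor REDD1 and answers to glucocorticoids, hypoxia and p53 as well as ATF4, measured 7.01, 7.87, 6.92 and 7.34 in the PDGF-CC arrays. In the PBS arrays it measured 8.28, 8.67 and 9.01 so that no treated array reached a PBS value. The difference was -1.37 ± 0.26 (adjusted p = 0.722 by limma). Jdp2, a bZIP repressor related to ATF3, was at -0.43 ± 0.15, and at -0.30 without PBS array 2. Within description numbers 5 to 7, against PBS array 3 alone, it was at +0.01. Sesn2, a sestrin that restrains mTORC1, was at +0.23 ± 0.098, a p of 0.0496, and at +0.14 without PBS array 2. The death receptor gene Tnfrsf10b, a CHOP target, was at -0.38 ± 0.19, from -0.53 without PBS array 1 to -0.21 without PBS array 2, and -0.26 without PDGF-CC array 2.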

How the data were processed

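RNA of 7 samples (4 PDGF-CC, 3 PBS; 10 ng of total RNA each, per the labels' protocols) was amplified, biotinylated and measured on 1 array each. The deposited values are taken as log2 expression values, as their range shows. The submitters' processing notes list RMA, limma and the Affymetrix Expression Console, with neither version nor order, and the build is not given in the sources used here. RMA equalises the distributions of arrays and so removes any overall shift in RNA level. Arrays carry no read depth, and their number limits the precision.

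Symbols were those of the platform annotation. Of 33793 probe sets, 23521 had 1 symbol, 1814 several and 8458 none. Each gene was represented by its brightest probe set with that symbol alone. The annotated probe sets were filtered on their mean, keeping those brighter than the 30th percentile (4.1447). Groups were compared with limma 3.58.1 (R 4.3.3; lmFit, then eBayes) with treatment as the only term, 2-sided, with Benjamini-Hochberg adjustment over 17734 probe sets and a threshold of 0.05. The fit was tested on simulated data. All 10 genes are named, and from each pathway list up to 4 genes with the smallest p. The genes and lists were chosen with earlier results of these data known. Of 114 pathway entries 106 had a probe set and 105 were tested; 4 were matched by an older symbol through RefSeq (GRCm38.p6). Of 62 marker entries 59 had one and 58 were tested. Promoters came from RefSeq GRCm38.p6. Alternatives changed the filter, prior, normalization, weights, covariates, probe set rule and arrays. Figures were drawn with matplotlib 3.10.9.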

Additional observations from a re-analysis of the deposited data

Results flagged for a closer look

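Within the 4 PDGF-CC arrays, 1 array stood apart from the other 3 by Dixon's criterion for 6 of 34 named genes, where chance flags about 1 group in 20 if values are not tied. That rate is no fair yardstick here, since many of the named genes were chosen for a small p in these data. PDGF-CC array 4 was lowest for Asns (7.212, the next array at 7.442), for Derl3 (4.162, the next at 4.271) and for Trib3 (5.496). For Trib3 the other 3 treated arrays share the value 5.502, so that any gap at all meets the criterion, and its place among the 6 says nothing about that array. Derl3 and Cars too had tied values among the treated arrays. PDGF-CC array 1 was highest for Ero1b (6.334, the next at 6.190) and for Cars (7.528, the next at 7.367). PDGF-CC array 2 was lowest for Tnfrsf10b (5.576, the next at 6.056). The PBS group of 3 was not examined in this way.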

How the results depend on the processing

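Herpud1 was lower at an unadjusted p under 0.05 in 17 of 17 alternative fits (-0.434 to -0.257), and never passed the adjusted threshold. The count of the 10 genes stayed at 1 lower and 0 higher in those fits, and their median ran from -0.056 to +0.024. Over all probe sets, 3 were called with arrays centred on their median, 3 with a trended and robust prior, 3 with the brightness filter raised to the 50th percentile, 1 with repeated quantile normalization, and 0 to 1 on leaving out single arrays. Why was not tested. Signs turned for 11 genes. With centred arrays, Atf4 was at 0.00076 and Calr at 0.0065; with repeated quantile normalization Atf4 was at 0.030, Calr at 0.042 and Xbp1 at 0.0077. With array weights, Chac1 was at -0.015 and Sdf2l1 at -0.021, and with description number as a covariate Chac1 was at -0.029. Within numbers 1 to 4, Ddit3 was at -0.058, Trib3 at 0.027 and Xbp1 at 0.054. Within 5 to 7, Atf6 was at -0.0094, Chac1 at -0.035, Sdf2l1 at -0.0081, Eif2ak2 at 0.025, Jdp2 at 0.0057 and Map3k5 at -0.037. PBS array 3 is the only PBS array within those numbers. Leaving out single arrays gave -0.019 to 0.0040 for Atf4, -0.013 to 0.029 for Atf6, -0.079 to 0.068 for Calr, -0.063 to 0.068 for Chac1, -0.059 to 0.086 for Ddit3, -0.050 to 0.16 for Sdf2l1, -0.11 to 0.026 for Trib3 and -0.11 to 0.058 for Xbp1. The mean over probe sets could not change the 10 genes, which have 1 each. Arrays share replicate numbers across groups; deviations of same-numbered arrays correlated at 0.163, 0.107 and 0.0844, and PBS array 3 correlated best with PDGF-CC array 4 (0.32), so the numbers were not taken to pair the samples. With the replicate block Herpud1 was at -0.369, Xbp1 turned to 0.033, and 0 probe sets were called. Derl3 and Sesn2 were dim enough to fall under the 50th-percentile filter and have no value there.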
